A study of Mus musculus with 4 samples.

Results

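The genes described here are 38 mouse pattern-recognition genes: 12 toll-like receptors, 13 NOD-like receptors, 3 other microbial receptors (Aim2, Clec7a and Pglyrp1) and 10 adaptors and kinases that pass their signals on. They were chosen by name, with earlier results of these data known. A probe set whose annotation gave the member as its single gene symbol was found for 32 of the 38, among 19938 genes so covered, and 26 of the 32 passed the filter on low values described below. The expression of Tlr5, Tlr11, Nlrp12, Naip1, Irak4 and Tmem173 was not analysed here.

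Total RNA of the small intestine of C57BL/6 mice was hybridised to 4 single-colour Affymetrix arrays, 2 from wild-type mice and 2 from mice with the CFLARs Tg genotype. CFLARs is the short form of the caspase-8 regulator encoded by Cflar. The array titles end in XX and XY for wild-type and in XCFX and XCFY for CFLARs Tg, and the arrays are called by these endings. The XX array is wild-type replicate 1, XY wild-type replicate 2, XCFX CFLARs Tg replicate 1 and XCFY CFLARs Tg replicate 2, with numbers given in accession order. Where arrays are set in pairs (XCFX with XX, XCFY with XY), the pairs come from the title endings. The sources used here do not give the promoter of the transgene, the age of the mice, the stretch of intestine or the number of animals behind each array. The p-values therefore measure only the spread between these samples, which may be technical and also holds any difference between the sexes. Per its title, the series concerns necroptosis of the intestinal epithelium, and its design text names the comparison of the genotypes.

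All values are log2 readings as deposited. Array medians lay between 8.31 and 8.33. Y-linked genes on the arrays with XX-type titles and Xist on the other arrays, which served as genes without RNA, read 5.13 to 6.78, and the same genes read 9.08 to 12.92 where they were present, so the titles matched the sex-linked RNA. The epithelial markers Epcam and Vil1 read 12.28 to 12.46 and 11.99 to 12.21 over the 4 arrays, so RNA of the intestinal epithelium was present on each array.

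Toll-like receptors sit on the cell surface or in endosomes and bind microbial lipids, proteins and nucleic acids. Most of them signal through Myd88, Tirap and the Irak kinases towards NF-kB. NOD-like receptors sense bacterial fragments in the cytosol, and several of them build inflammasomes, complexes that activate caspase-1. In the intestine some of these genes are used mainly by the epithelium, such as Nlrp6 and the Naip genes, and others mainly by myeloid cells, such as Clec7a and Tlr13.

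In CFLARs Tg intestine the receptor genes Pglyrp1, Clec7a, Tlr1, Tlr2 and Nod1 rose, each 1.31- to 2.47-fold higher. The cytosolic NOD-like genes Nlrp6, Nlrc3, Naip6 and Naip2 and the mitochondrial adaptor gene Mavs fell by 0.37 to 0.69 on the log2 scale. In all, 10 of the 26 fitted members passed the threshold (limma, adjusted p under 0.05), 5 in each direction. Clec7a and Tlr1 had wild-type means under the filter (7.43 and 7.46) and entered this fit only through their CFLARs Tg readings. Fitted without a filter, both passed as well (limma adjusted p = 0.0325 and 0.0300). Of the 13956 genes fitted, 19.3% passed, 8.44% as higher and 10.9% as lower. Both CFLARs Tg arrays lay above both wild-type arrays in 15 of the 26 members and below them in 8, against 32% and 37.6% of all fitted genes. In bulk tissue, fewer cells of a type and less RNA per cell cannot be told apart. The count of calls depended on which array was left out. Without wild-type replicate 1 or without wild-type replicate 2, 0 of the 26 members passed (limma; all 10 kept their direction, with adjusted p from 0.122 to 0.253), when 0.301% and 0.287% of all genes did. In those fits only the pair of CFLARs Tg arrays informs the error. Without CFLARs Tg replicate 1 or 2, when only the wild-type pair does, 22 and 17 of the 26 passed, as did 47% and 32.4% of all genes. With title type as a block, 16 of the 26 passed, when 22.3% of all genes did. They were the 10 and also Irak3, Tlr3, Naip5, Tifa, Tlr13 and Myd88 (limma adjusted p from 0.0178 to 0.0468).

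**Figure D1:**
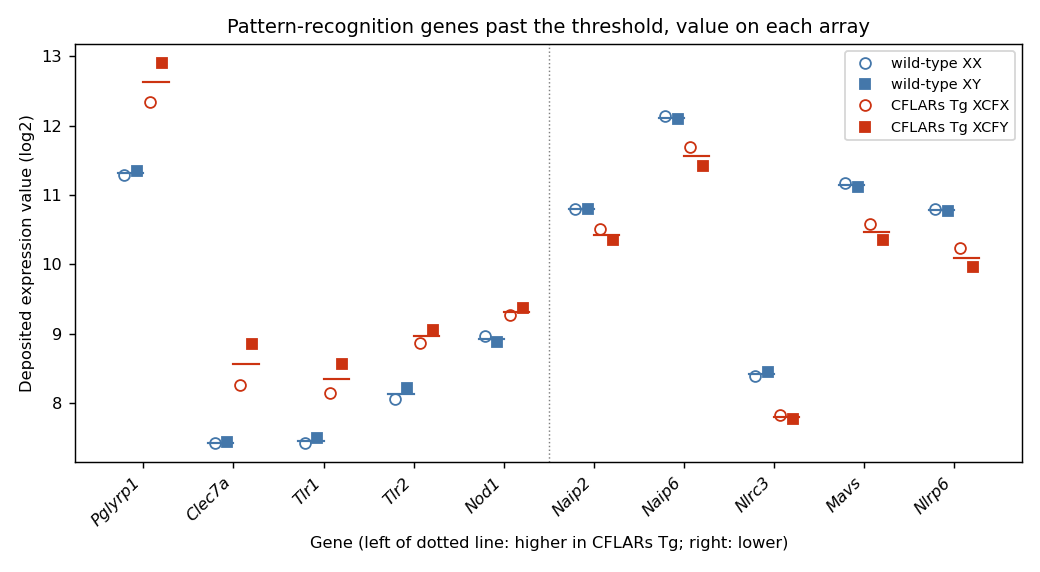
Deposited log2 values of the 10 genes that passed the threshold (y axis) on each of the 4 arrays, with 1 column per gene. Blue symbols are wild-type and red symbols CFLARs Tg, open circles the XX and XCFX arrays, filled squares the XY and XCFY arrays, and bars the group means. In each gene both red symbols lie on the same side of both blue symbols, and the XCFY array lies farther from wild-type than the XCFX array, least so in Nlrc3 (7.77 and 7.83).

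Promoter sequences from RefSeq (GRCm38.p6) were matched for 34 of the 38 members, and the 250 bases before each start site were searched on both strands for 3 motifs. The motifs were the NF-kB consensus, the STAT-binding GAS element TTCNNNGAA and an interferon-response element, GAAA followed by any 2 bases and GAAA again. An NF-kB match was found in 5 of the 34 members (14.7%; 4.46% of 27025 genes), namely Tlr2, Tlr3, Nlrp3, Pglyrp1 and Naip5. A GAS match was found in 6 (17.6%; 8.13%), and an interferon-response match in 3 (8.82%; 3.46%), Myd88, Tlr6 and Tlr11. Of the 5 with an NF-kB match, Tlr2 and Pglyrp1 rose, and Nlrp3 and Tlr3 read higher (0.92 and 0.38). Naip5 read lower (-0.57). Nlrp3 was under the filter, and Tlr3 and Naip5 did not pass. A match is a string of letters and not a bound site. The matches upstream of Pglyrp1, Nlrp3 and Myd88 are shown because these genes read higher in CFLARs Tg and the windows lie outside annotated genes. They are written 5′ to 3′ with the match in capitals and 30 bases on each side. The match in Pglyrp1 lies 93 to 84 bases before the start site (plus strand, chr7:18884567-18884636), that in Nlrp3 186 to 177 bases before a start site (plus strand, chr11:59541353-59541422), and the overlapping GAS and interferon-response matches in Myd88 46 to 31 bases before the start site (minus strand, chr9:119340019-119340094).
Pglyrp1: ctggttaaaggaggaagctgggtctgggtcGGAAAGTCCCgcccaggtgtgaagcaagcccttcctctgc
Nlrp3: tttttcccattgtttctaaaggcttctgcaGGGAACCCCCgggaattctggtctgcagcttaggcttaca
Myd88: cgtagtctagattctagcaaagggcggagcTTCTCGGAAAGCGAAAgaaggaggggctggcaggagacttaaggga

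Among the toll-like receptors, 2 of 6 fitted genes rose and 0 fell, against 8.44% and 10.9% of all fitted genes. Tlr2, which binds bacterial lipoproteins together with Tlr1 or Tlr6, read 8.06 and 8.21 on the XX and XY arrays and 8.87 and 9.05 on the XCFX and XCFY arrays. The groups did not overlap, and the difference was nearly the same in both pairs of arrays (0.81 for XCFX minus XX and 0.84 for XCFY minus XY). Tlr2 rose from 8.14 ± 0.11 to 8.96 ± 0.13 (SD, n = 2), a 1.77-fold difference (log2 difference 0.83, SE 0.09, limma adjusted p = 0.0183).

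Tlr1, its partner for triacylated lipoproteins, read 7.43 and 7.49 in wild-type and 8.14 and 8.56 in CFLARs Tg. Tlr1 rose 1.86-fold (log2 difference 0.89, SE 0.15, limma adjusted p = 0.0282). Tlr6, the partner for diacylated lipoproteins, fell under the filter. It read 6.81 and 6.86 in wild-type, close to the readings of genes without RNA, and 7.05 and 7.46 in CFLARs Tg. Fitted without a filter, its difference of 0.42 did not pass (SE 0.14, limma adjusted p = 0.124).

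Tlr4, the lipopolysaccharide receptor, lay just under the filter. It read 7.20 and 7.29 in wild-type and 7.58 and 7.86 in CFLARs Tg, without overlap. Without a filter its difference of 0.48 had an SE of 0.11 (limma adjusted p = 0.0558). The co-receptor of Tlr4, Cd14, read 7.32 and 7.33 in wild-type and 7.97 and 8.91 in CFLARs Tg, and Ly96, the other Tlr4 partner, differed by -0.21 (SE 0.08); neither passed the test.

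The receptors of nucleic acids had larger spread or smaller differences. Tlr13, an endosomal receptor of bacterial ribosomal RNA, read 7.76 and 7.80 in wild-type, 8.24 on the XCFX array and 9.34 on the XCFY array. The CFLARs Tg arrays thus differed by 1.10, the widest gap of any fitted member, and the mean difference of 1.01 did not pass (SE 0.37, limma adjusted p = 0.115; 0.042 with title type as a block). Tlr3, the receptor of double-stranded RNA, read 7.79 and 7.91 in wild-type and 8.09 and 8.37 in CFLARs Tg, a difference of 0.38 (SE 0.12, limma adjusted p = 0.0827; 0.0325 with the block). Tlr9, which binds unmethylated CpG DNA, differed by 0.23 (SE 0.10), and Tlr12, which with Tlr11 recognises profilin of protozoa, by 0.01 (SE 0.06).

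Tlr7, Tlr8, Tlr13 and Irak1 lie on the X chromosome, so their values were also compared by title type. In wild-type the XY array minus the XX array gave 0.12 for Tlr7, -0.08 for Tlr8, 0.04 for Tlr13 and -0.01 for Irak1. In CFLARs Tg the XCFY array minus the XCFX array gave 0.25, 0.59, 1.10 and 0.06 in the same order. In all 4 the gap was wider in CFLARs Tg than in wild-type, as in 24 of the 26 fitted members. Across autosomal genes the SD of the gap was also larger in CFLARs Tg (0.21) than in wild-type (0.13). Each gap rests on 1 array a side, with no test. Tlr7 and Tlr8, endosomal receptors of single-stranded RNA, were under the filter. Tlr7 read 7.10 and 7.23 in wild-type and 7.18 and 7.43 in CFLARs Tg, with overlapping groups, and Tlr8 read 7.13 and 7.05, and 7.19 and 7.78.

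The median difference of the 6 fitted toll-like receptors was 0.60, and that of all 10 with a probe set was 0.41. Over all fitted genes the median was -0.01. Filtered genes can pass through the group in which they are high, so nothing is drawn from the first of these medians. Without CFLARs Tg replicate 2 (XCFY) the median of the 6 was 0.35.

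The NOD-like receptors went both ways. Of 9 fitted genes 1 rose and 4 fell, against 8.44% and 10.9% of all fitted genes. Their median was -0.37, and the median of all 11 with a probe set was 0.02. Nod1, a sensor of peptidoglycan fragments with diaminopimelic acid, read 8.97 and 8.88 in wild-type and 9.26 and 9.37 in CFLARs Tg. Nod1 rose 1.31-fold (log2 difference 0.39, SE 0.07, limma adjusted p = 0.0308). Nod2, the sensor of muramyl dipeptide, read 7.70 and 7.74 in wild-type and 7.95 and 7.91 in CFLARs Tg. That difference of 0.21 lay outside the spread of either group and missed the threshold (SE 0.06, limma adjusted p = 0.0659).

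Nlrp6, Naip6 and Naip2 fell. Nlrp6, an inflammasome receptor of enterocytes and goblet cells, read 10.80 and 10.77 on the wild-type arrays, 10.24 on the XCFX and 9.96 on the XCFY array. Nlrp6 fell by 0.69 on the log2 scale (SE 0.10, limma adjusted p = 0.0248). The 3 Naip genes measured lie together on chromosome 13 and encode the receptors that hand flagellin (Naip5 and Naip6) or rod proteins of bacterial secretion systems (Naip2) to Nlrc4. They are close copies of each other, and whether their probe sets share signal is not known here.

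Naip6 read 12.13 and 12.09 in wild-type and 11.70 and 11.42 in CFLARs Tg, and it fell by 0.56 (SE 0.11, limma adjusted p = 0.0341). Naip2 read 10.80 and 10.79 in wild-type and 10.50 and 10.35 in CFLARs Tg, and it fell by 0.37 (SE 0.07, limma adjusted p = 0.0366). Naip5 read 11.84 and 11.81, and 11.51 and 11.00. Its groups did not overlap either, but the CFLARs Tg arrays differed by 0.52 and the difference of -0.57 did not pass (SE 0.18, limma adjusted p = 0.0861; 0.0363 with the block).

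Nlrc4, the shared partner of the Naip proteins, read 9.95 and 9.97 in wild-type and 10.09 and 9.88 in CFLARs Tg. The wild-type values lay between those of CFLARs Tg, and the difference was 0.03 (SE 0.09, limma adjusted p = 0.848). Pycard (ASC), the adaptor that joins inflammasome receptors to caspase-1, read 10.95 and 10.97, and 10.76 and 10.56, a difference of -0.30 that missed the threshold (SE 0.08, limma adjusted p = 0.0689).

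Nlrc3, described as a restraint on STING and on toll-like receptor signalling, fell with a small spread in both groups. It read 8.39 and 8.44 in wild-type and 7.83 and 7.77 in CFLARs Tg, a fall by 0.61 (SE 0.06, limma adjusted p = 0.0167). Nlrx1, a NOD-like protein of mitochondria, differed by 0.02 (SE 0.05).

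Nlrp3, the inflammasome receptor of myeloid cells, was under the filter. It read 6.54 and 6.56 in wild-type, within the readings of genes without RNA, and 7.27 and 7.66 in CFLARs Tg. By the group means Nlrp3 was 1.89-fold higher. Fitted without a filter, it passed (log2 difference 0.92, SE 0.13, limma adjusted p = 0.0255). Nlrp10 read 6.42 to 6.53 on the 4 arrays, all within the range of genes without RNA.

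**Figure D2:**
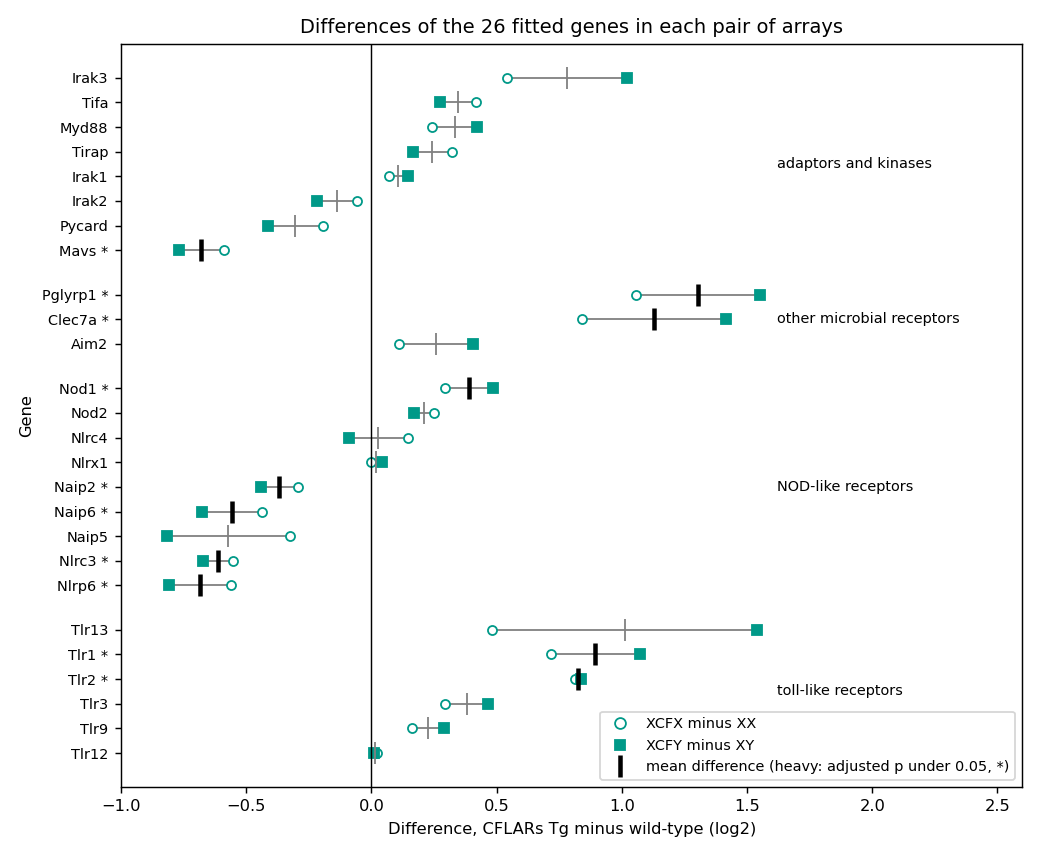
Log2 differences (x axis) of the 26 fitted genes, ordered within 4 classes (y axis). Open circles give XCFX minus XX, filled squares XCFY minus XY, and upright bars the mean difference, heavy where limma's adjusted p was under 0.05. The toll-like receptors and the 3 other receptors lie at or above 0, the NOD-like receptors lie on both sides from -0.69 (Nlrp6) to 0.39 (Nod1), and Tlr13 has the widest gap between its pairs.

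Of the 3 other receptors, Pglyrp1 and Clec7a rose. Pglyrp1, a secreted protein that binds peptidoglycan and is stored in neutrophil granules, read 11.29 and 11.35 on the wild-type arrays and 12.34 and 12.90 on the CFLARs Tg arrays. The neutrophil marker Ly6g read 6.83 and 7.02 on the wild-type arrays and 8.34 and 9.14 on the CFLARs Tg arrays. Which cells the Pglyrp1 RNA came from was not tested. Pglyrp1 rose from 11.32 ± 0.04 to 12.62 ± 0.40 (SD, n = 2), the largest rise of any fitted member, 2.47-fold (log2 difference 1.30, SE 0.19, limma adjusted p = 0.0239). Clec7a (dectin-1), the receptor of fungal beta-glucan on myeloid cells, read 7.42 and 7.44 in wild-type and 8.26 and 8.85 in CFLARs Tg. Clec7a rose 2.19-fold (log2 difference 1.13, SE 0.20, limma adjusted p = 0.0305). Aim2, the sensor of cytosolic DNA, read 8.69 and 8.79, and 8.80 and 9.20. Its XCFX value nearly met the wild-type XY value, and the difference of 0.26 did not pass (SE 0.14, limma adjusted p = 0.251).

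Among the 8 fitted adaptors and kinases 1 fell and 0 rose, with a median of 0.18. That is 12.5% called, under the 19.3% of all fitted genes. Mavs, the mitochondrial adaptor of the RNA sensors Ddx58 and Ifih1, read 11.17 and 11.12 in wild-type and 10.58 and 10.35 in CFLARs Tg. Mavs fell by 0.68 (SE 0.10, limma adjusted p = 0.0228). The sensors themselves differed by -0.22 for Ddx58 (SE 0.16) and 0.07 for Ifih1 (SE 0.14), with overlapping groups.

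Myd88, the adaptor shared by most toll-like receptors, read 10.62 and 10.70 in wild-type and 10.86 and 11.12 in CFLARs Tg, a difference of 0.33 (SE 0.10, limma adjusted p = 0.0863). Tirap, which brings Myd88 to Tlr2 and Tlr4, differed by 0.24 (SE 0.06, limma adjusted p = 0.0641). Tifa, the adaptor of the bacterial ADP-heptose response, read 10.84 and 10.79, and 11.26 and 11.06, a difference of 0.35 (SE 0.09, limma adjusted p = 0.0551). All 3 lay above wild-type on both CFLARs Tg arrays, and with the title type as a block Myd88 and Tifa passed (limma adjusted p = 0.0468 and 0.0377).

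Irak3 (IRAK-M), which lacks kinase activity and dampens this signalling, showed a larger difference than the Irak kinases. Irak3 read 8.22 and 8.28 in wild-type and 8.76 and 9.31 in CFLARs Tg, a 1.72-fold difference just short of the threshold (log2 difference 0.78, SE 0.19, limma adjusted p = 0.0523; 0.0491 after median centring and 0.0178 with the block). Irak1 read 9.55 and 9.54, and 9.62 and 9.68. It differed by 0.11 (SE 0.06) and Irak2 by -0.14 (SE 0.09). Whether these 3 differences differ from each other was not tested.

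In most members the XCFY array lay farther from its wild-type counterpart than the XCFX array did: in 10 of the 10 called members (68% of all called genes), in 21 of all 26 (80.8%) and in 60.8% of all 13956 fitted genes. The CFLARs Tg arrays also lay farther apart than the wild-type arrays in 24 of the 26, by up to 1.10 against up to 0.15. This was not particular to the members: across autosomal genes the SD of XCFY minus XCFX was 0.21, and that of XY minus XX 0.13. Each pair is 1 array against 1 array, so the difference between the pairs has no test.

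Markers of neutrophils and of macrophages and monocytes were read in the same fit. Of the 14 neutrophil markers, 8 were fitted, of which 7 rose and 0 fell. On both CFLARs Tg arrays 12 of the 14 lay above wild-type, as did 32% of all fitted genes. Ly6g, Csf3r, Cxcr2, S100a8, S100a9 and Il1r2 had wild-type means under the filter. They were fitted only through their CFLARs Tg readings, so nothing is drawn from the count of 7. The summed level of the 14 (log2 of the sum of linear readings, background included) ran from 10.94 to 11.01 in wild-type and from 12.02 to 13.13 in CFLARs Tg. In wild-type the means of 5 of the 14 lay within the readings of genes without RNA, and in CFLARs Tg 0 did. Ly6g, the defining marker of mouse neutrophils, read 6.83 and 7.02, and 8.34 and 9.14. Of the 14 macrophage and monocyte markers, 13 were fitted, 0 rose and 1 fell, Mertk (named after its value was seen), by 0.84 (SE 0.15, limma adjusted p = 0.0308). Of all fitted genes 8.44% rose and 10.9% fell. A positive difference was seen in 11 of the 13, and in 6650 of the 13956 genes fitted. On both CFLARs Tg arrays 8 of the 13 lay above wild-type, against 32% of all fitted genes. The largest differences were those of Itgam with 1.22 (SE 0.34), Lyz2 with 0.99 (SE 0.26) and Fcgr3 with 0.91 (SE 0.22), none of which passed. Cx3cr1 differed by -0.12 (SE 0.08). Their summed level was 13.42 to 13.44 in wild-type and 13.46 to 13.78 in CFLARs Tg, with the defining markers Adgre1 and Csf1r overlapping between the groups. Mertk, the marker that fell, had the highest wild-type readings of the list (11.38 and 11.36) and so weighs most on this sum in wild-type. The part of neutrophils, macrophages and monocytes in the rises of Pglyrp1, Clec7a, Tlr1 and Tlr2 was not tested.

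**Figure D3:**
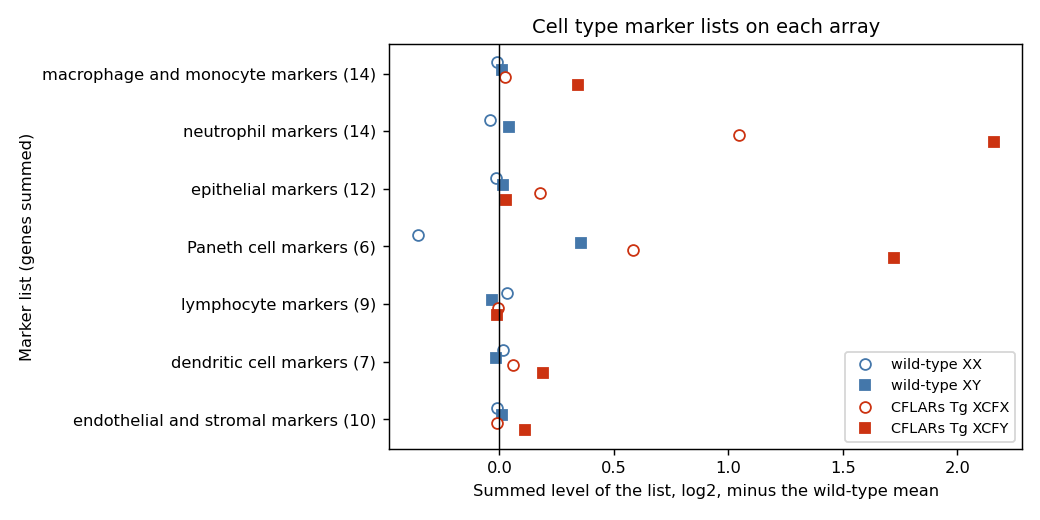
Summed level of 7 cell type marker lists on each array (x axis, log2, minus the mean of the wild-type arrays), with the number of genes summed in parentheses. Symbols are as in the plot of values by array. Neutrophil and Paneth cell markers stand above wild-type on both CFLARs Tg arrays, most on XCFY, while epithelial markers (16.07 to 16.26 as summed levels) and lymphocyte and stromal markers lie close to the wild-type mean on every array.

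Epithelial markers went both ways, and their part in the genes that were lower was not tested. Of 12 fitted markers 4 rose and 0 fell, against 8.44% and 10.9% of all fitted genes. The summed level was 16.07 to 16.10 in wild-type and 16.11 to 16.26 in CFLARs Tg. Both CFLARs Tg arrays lay above both wild-type arrays in 7 of the 12 and below them in 3, against 32% and 37.6% of all fitted genes. The keratin gene Krt20 rose by 1.35 (SE 0.17), while Fabp2, an enterocyte fatty acid binding protein gene, differed by -0.72 (SE 0.27), reading 13.66 and 13.64 in wild-type and 13.33 and 12.52 in CFLARs Tg. Both are named after their values were seen. Paneth cell markers had 0 of 4 fitted genes past the threshold (limma; 3 at an unadjusted p under 0.05), and their summed levels were 10.43 and 11.15 in wild-type and 11.37 and 12.51 in CFLARs Tg. Lymphocyte markers had 0 of 3 (limma; 0 at an unadjusted p under 0.05), dendritic cell markers 1 higher and 1 lower of 4, and endothelial and stromal markers 0 higher and 1 lower of 10.

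Among 49 further genes of these pathways, 34 were fitted, of which 6 rose and 1 fell, 20.6% against 19.3% of all genes. Casp4, the mouse caspase that binds cytosolic lipopolysaccharide, read 9.19 and 9.25 in wild-type and 10.31 and 10.27 in CFLARs Tg, a rise by 1.07 (SE 0.06, limma adjusted p = 0.00541). Il1b, the cytokine gene whose product caspase-1 matures, read 7.02 and 7.15, and 9.11 and 10.09, a rise by 2.51 (SE 0.33, limma adjusted p = 0.0207). Clec4n (dectin-2), a receptor of fungal mannan, rose by 1.14 (SE 0.24) and Ikbke, a kinase that acts on interferon regulatory factors, by 0.48 (SE 0.07). Il1b and Clec4n had wild-type means under the filter (both 7.09). They were fitted only through their CFLARs Tg readings, so nothing is drawn from the count of 6. Tab1, a partner of the kinase Tak1 downstream of the Irak proteins, fell by 0.26 (SE 0.05, limma adjusted p = 0.0394). Caspase-1 itself (Casp1) read 10.11 and 10.10 in wild-type and 10.40 and 10.04 in CFLARs Tg, with overlapping groups.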

How the data were processed

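The authors deposited log2 expression values for 28856 probe sets on 4 arrays, made from biotin-labelled cRNA per the labels' protocols. The background correction, summarisation and normalization behind the deposited log2 values are not given in the sources used here, and the values were used without further change. Genes were named through the platform annotation: 21789 probe sets had a single symbol, 1621 several and 5446 none, and only the first were used. Each of 19938 genes was represented by the probe set with the highest mean, and the 30% of genes with the lowest means (under 7.48) were left out. The genotypes, with 2 arrays each, were compared across the remaining 13956 genes with limma 3.58.1 (lmFit and eBayes, no covariate) in R 4.3.3, with Benjamini-Hochberg adjustment over all of them at 0.05. The fit had 2 residual and 2.64 prior degrees of freedom. It was tested on simulated data with equal spread in both groups and differences larger than that of any fitted member. That test does not bear on smaller differences or on unequal spread. Differences are CFLARs Tg minus wild-type, with the moderated SE, and "rose" and "fell" mean past the threshold. The number of arrays limits the precision.

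Members, further pathway genes and marker lists were chosen with earlier results of these data known. Values on each array are given for members past the threshold, up to 4 fitted members per class with the largest differences and the X-linked members; those of further members were added. Of the further pathway genes, up to 4 past the threshold in each direction were named by this rule. Cd14, Ly96, Ddx58, Ifih1 and Casp1 were added as partners of members, after their values were seen. Alternatives were quantile normalization, median centring, no filter, a 50% filter, the median of a gene's probe sets, the title type as a block, limma's treat against 0.5, a trended robust variance, and each array left out.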

Additional observations from a re-analysis of the deposited data

Results flagged for a closer look

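Nlrc4 and Nlrx1 had differences of opposite sign in the pairs of arrays. For Nlrc4, XCFX minus XX was 0.14 and XCFY minus XY was -0.09, so the pairs differed by -0.24 (XY-type minus XX-type). For Nlrx1 these values were -0.0023 and 0.041, and the pairs differed by 0.044. With 1 array on each side these differences were not tested.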

How the results depend on the processing

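Quantile normalization, median centring, no filter, the median of probe sets and the trended robust variance kept the 10 called members, and median centring added Irak3, no filter Nlrp3 and the median of probe sets Tlr4. With the lowest 50% of genes left out, 2 of 16 fitted members were higher, and no toll-like receptor was fitted. The other receptors, then Pglyrp1 and Aim2, had a median of 0.78. Without a filter the median of the NOD-like receptors was 0.019. Against a minimum difference of 0.5 (treat), 0 members were higher and 0 lower, as were 53 and 10 of all genes. With title type as a replicate block, 16 members passed, 10 higher and 6 lower, as did 22.3% of all genes. With 1 array left out, counts ran from 0 to 14 members higher and 0 to 8 lower, and from 34 to 3112 genes higher and 3 to 3447 lower; the lowest counts came without a wild-type array. The medians ran from 0.35 to 0.72 for toll-like receptors and from 0.14 to 0.19 for adaptors. The spread these class medians were judged against, the pooled within-group SD, was chosen after the values were seen, in place of the SD of the 2 pair medians: by it 4 of 47 medians moved, and by the first choice 9, among them the toll-like receptors without a filter (0.41) and the adaptors after quantile normalization or median centring (both 0.17). Tlr12 turned to -0.0086 after quantile normalization and ran from -0.0095 to 0.039 with 1 array left out, and Nlrc4 ran from -0.078 to 0.13, all uncalled. The cause of these changes was not tested.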
